A study of Chlorocebus sabaeus with 3 samples.

Results

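DLK1, RTL1 and DIO3 are the protein-coding genes of 1 imprinted cluster, and their transcripts were followed here in the cell-free RNA of amniotic fluid. They were taken by gene name and are 3 of the 33994 genes in the files. The cluster was chosen by the low RPKM of DLK1 and RTL1 in the stillborn library, so their values there are a description and carry no test. DIO3 came with the cluster and was not chosen for its level. The fluid came from 3 vervet monkey pregnancies (Chlorocebus sabaeus, an Old World primate), with 1 library for each status. The stillborn library has the sex label M, the spontaneous abortion library the label NA and the alive library the label F. In all 3, RNA was isolated from the supernatant of the fluid, treated with DNase and amplified to cDNA by single-primer isothermal amplification (SPIA). The sources used here give neither gestational age nor the time between fetal death and collection. Status, sex and individual pregnancy cannot be told apart, and a comparison sets 1 library against 1 library.

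Imprinted genes are read mainly from the chromosome of 1 parent. In this cluster the 3 protein-coding genes are known to be expressed from the paternal chromosome, while a series of non-coding RNAs, with many small nucleolar RNAs and microRNAs among them, comes from the maternal one. DLK1 is a membrane protein related to the Notch ligands that is also shed into body fluids. It marks fetal liver, muscle, adrenal and adipocyte precursors and holds back adipocyte differentiation. RTL1 is derived from the gag-pol gene of a retrotransposon and is known for its part in fetal placental capillaries and in muscle. DIO3 is the selenoenzyme that inactivates thyroid hormone, and placenta and fetal tissues are known to be rich in it.

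The alive library held 20220899 assigned reads, the stillborn library 17749954 and that of the spontaneous abortion 29926352. The files hold RPKM, a read number divided by gene length and by library depth, and the whole reads behind each value were worked out from it. These read numbers are lower bounds, because a multiple shared by all libraries leaves the RPKM as it is. Ratios between libraries were taken on reads scaled by the trimmed mean of M-values (TMM). They stand with exact 95% intervals that cover counting error only, because amplified reads without molecular identifiers are not independent molecules. The word apart is used for a ratio of at least 4-fold whose interval excludes 1, with at least 30 reads in the higher library. In bulk RNA of this kind, fewer cells of a type and less RNA per cell cannot be told apart.

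DLK1 was high in the alive library and low in the stillborn one. Its level was RPKM 0.539 in the stillborn library (14 reads, interval 0.295 to 0.905), 2.49 in the spontaneous abortion (109 reads, 2.04 to 3.003) and 12.5 in the alive library (371 reads, 11.3 to 13.9). The alive library was the highest and the stillborn library the lowest, and the 3 intervals do not overlap, which the choice of the gene favours. In the alive library DLK1 stood above 84.6% of the genes with a value over 0, in the spontaneous abortion above 65.0% and in the stillborn library above 40.6%. The transcript was therefore among the better represented ones in 1 fluid and below the middle in another.

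As ratios of scaled reads, DLK1 was 20.8-fold lower in the stillborn than in the alive library (interval 12.2 to 38.4). Against the alive library the spontaneous abortion was 4.90-fold lower (3.95 to 6.13). This contrast shares the alive library with the one by which the gene was chosen, so it is a description too. Between the losses, DLK1 stood 4.25-fold lower in the stillbirth (2.43 to 8.02), an interval that reaches below 4-fold. All 3 comparisons use the same 3 libraries and are not separate evidence.

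**Figure D1:**
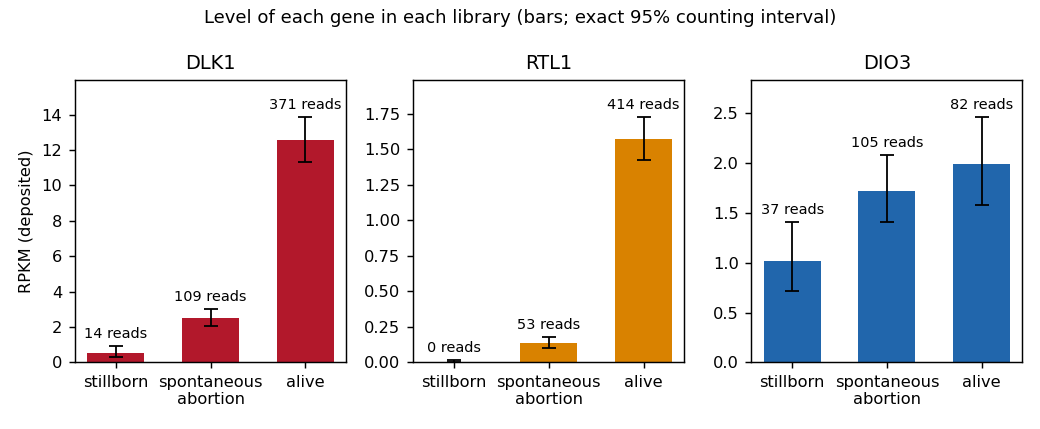
Deposited RPKM of DLK1, RTL1 and DIO3 (vertical axes, each with its own scale) in 1 library per status; bars are the values, whiskers the exact 95% counting intervals, and labels the reads. DLK1 runs from 0.539 to 12.5 and RTL1 from 0 to 1.57, while DIO3 stays between 1.02 and 1.99.

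RTL1 followed the same order with a wider range. It was listed at 0 in the stillborn library, at RPKM 0.136 in the spontaneous abortion (53 reads, interval 0.102 to 0.178) and at 1.57 in the alive library (414 reads, 1.42 to 1.73). In that library 3 reads, taken here as the limit for a count of 0, are worth RPKM 0.0130, and the exact interval of 0 reads goes up to 0.0159. Absence of the transcript is therefore not shown. The smallest length that makes the RTL1 reads whole is 13037 bases, against 1463 for DLK1 and 2039 for DIO3. Like the reads, these lengths are lower bounds, each up to an unknown multiple of its gene. A long gene model lowers the RPKM, and in these smallest reads RTL1 and DLK1 were close in the alive library, at 414 and 371.

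By the bound of the exact interval, RTL1 was at least 87.7-fold lower in the stillborn than in the alive library, and with the 0 taken as 3 reads the ratio is 108-fold. Against the spontaneous abortion it was at least 7.57-fold lower by that bound, and 9.64-fold with 3 reads. The spontaneous abortion library was 11.2-fold below the alive one (8.44 to 15.3), with the alive library again shared with the contrast behind the choice. Both DLK1 and RTL1 were thus lower in the fluid of both losses than in the alive one, and lowest in that of the stillbirth.

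DIO3 differed less across the fluids. It stood at RPKM 1.02 in the stillborn library (37 reads, interval 0.720 to 1.41), 1.72 in the spontaneous abortion (105 reads, 1.41 to 2.08) and 1.99 in the alive library (82 reads, 1.58 to 2.47). The spontaneous abortion and alive intervals overlap, and their ratio, 1.12-fold lower in the abortion, has an interval from 0.832 to 1.52 that includes 1. Its direction turns under upper quartile scaling, where the abortion library was 1.03 times the alive one. The stillborn library was 1.74-fold below the alive one (1.17 to 2.64) and 1.55-fold below the abortion (1.05 to 2.32). These intervals exclude 1 by a small margin under TMM and under each of the other scalings tried, but cover counting error alone.

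Of the 3 genes, 2 were apart as lower in stillborn against alive (DLK1 and RTL1), where 3.23% of the 13452 genes with enough reads were, and 4.69% as higher. This count follows from how the cluster was picked. In spontaneous abortion against alive the same 2 genes were apart as lower, where 1.5% of 13806 genes were, and 2.3% as higher. In stillborn against spontaneous abortion they were 2 of 3, beside 1.65% of 13811 genes, with 2.82% as higher. This contrast uses the stillborn values by which they were picked, so its count is a description too. The median log2 ratio of all such genes was -0.02, 0.01 and -0.04 in these comparisons. In spontaneous abortion against alive, 59 genes had a ratio below that of RTL1, 159 below that of DLK1 and 4970 below that of DIO3. RTL1 and DLK1 thus lay in the low tail of that comparison, which shares the alive library with the choice, and DIO3 in its body.

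**Figure D2:**
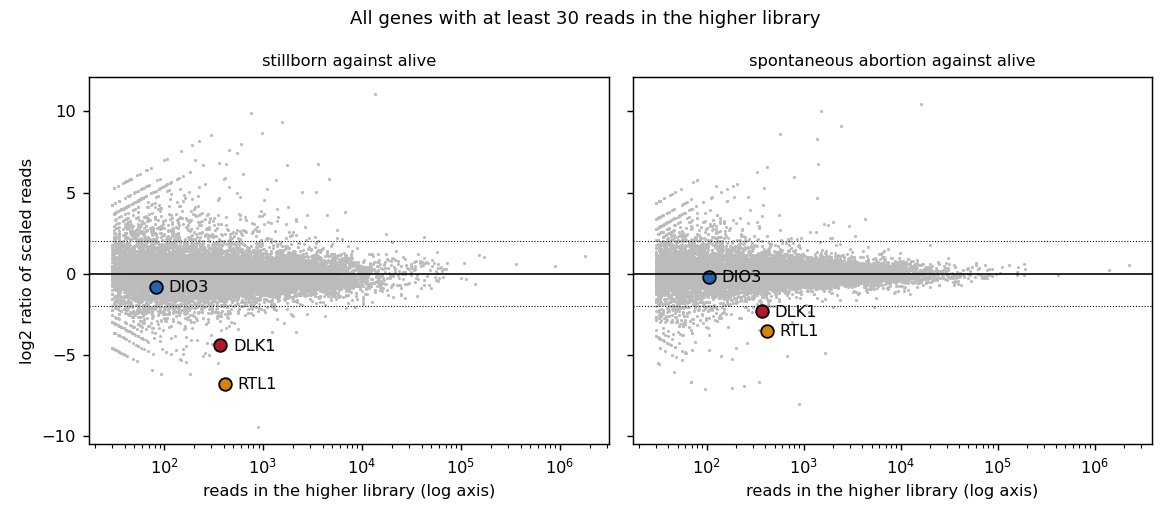
Log2 ratio of scaled reads (vertical axis) against the reads in the higher library (horizontal log axis) for all genes with at least 30 reads there (grey), with DLK1, RTL1 and DIO3 marked; dotted lines are 4-fold. DLK1 and RTL1 lie below the lower line in both panels and DIO3 lies between the lines.

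Ratios between the members inside a library are free of any scaling between libraries. Per length, DLK1 stood at 0.527 times DIO3 in the stillborn library (interval 0.263 to 0.999), at 1.45 times in the spontaneous abortion (1.096 to 1.91) and at 6.31 times in the alive library (4.95 to 8.11). The balance of the 2 ends of the cluster thus differed in each fluid, with DLK1 the higher in the alive and abortion libraries and DIO3 in the stillborn one. Measured against DIO3, DLK1 was 12.0-fold lower in stillborn than alive (5.95 to 24.9) and 4.36-fold lower in spontaneous abortion than alive (2.99 to 6.34). The low stillborn DLK1 is the value behind the choice, so the stillborn ratios are a description, and that interval ends just below 1 in the stillborn library.

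The balance of RTL1 with both others differed as well. Per length it was at 0.0789 times DIO3 in the spontaneous abortion (0.0556 to 0.111) and at 0.790 times in the alive library (0.622 to 1.013). That is 10.002-fold lower against DIO3 in the abortion (6.53 to 15.3). In the stillborn library RTL1 has 0 reads, so against DIO3 it was at least 46.5-fold lower than in the alive library by the exact bound, and 62.3-fold with 3 reads. The choice of the gene favours this difference. DLK1 stood at 7.99 times RTL1 in the alive library (6.92 to 9.21) and at 18.3 times in the spontaneous abortion (13.1 to 26.0), so the abortion library was lower by a further 2.29 times for RTL1 than for DLK1 (1.59 to 3.35).

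Non-coding transcripts of the cluster were looked up by position in the RefSeq gene table of the assembly mChlSab1.0.hap1, used for gene order only. From DLK1 to DIO3 that table has 52 entries, of which 5 have values here. The 3 members are joined by the long non-coding RNAs LOC103229707 and LOC103229714. The 38 small nucleolar RNAs of the stretch and the named maternal RNAs of the cluster, such as MEG3, are not analysed here. LOC103229707 overlaps RTL1 in the table, and 37 of the small nucleolar RNA entries lie within its span. No source used here gives the strand setting of the counting, so reads of RTL1 and LOC103229707 could be shared.

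LOC103229707 showed a smaller difference than RTL1. Its RPKM was 0.114 in the stillborn library (121 reads), 0.144 in the spontaneous abortion (257 reads) and 0.339 in the alive library (409 reads). It was 2.65-fold lower in stillborn than alive (2.16 to 3.28) and 2.29-fold lower in spontaneous abortion than alive (1.96 to 2.69), so it was not apart. Between the losses its interval included 1, at 1.16-fold lower in stillborn (0.930 to 1.45). Set against LOC103229707 inside the libraries, RTL1 was still 4.91-fold lower in the abortion than in the alive library (3.51 to 6.93).

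LOC103229714 is the neighbour of DIO3 in the table and had 4 reads in the stillborn, 19 in the abortion and 8 in the alive library. Its RPKM was 0.153, 0.431 and 0.269, and all 3 intervals of its ratios included 1. No difference was detectable for it at this depth.

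**Figure D3:**
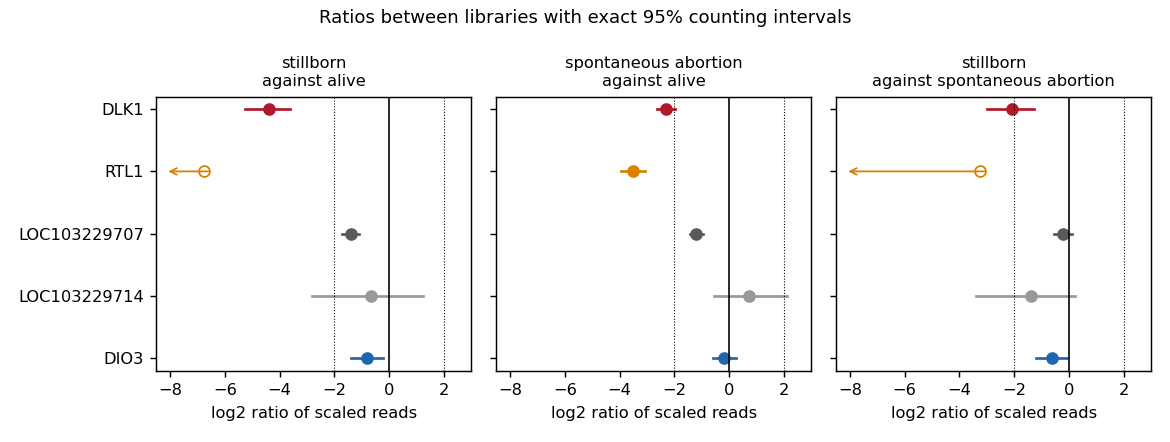
Log2 ratios of scaled reads (horizontal axis) for the 3 members and the 2 long non-coding RNAs of the cluster, 1 panel per comparison; lines are exact 95% counting intervals, open circles take 0 reads as 3 with an arrow below the exact bound, and dotted lines are 4-fold. DLK1 and RTL1 lie left of 0 in all panels, and LOC103229714 crosses 0 in each.

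The genes on either side of the cluster had ratios nearer to 1. Of 19 flanking genes in the files, 15 had enough reads in stillborn against alive and 0 were apart in either direction, a count near the shares of all genes (4.69% higher, 3.23% lower). Their median log2 ratio was -0.06, close to that of all genes. The lowest was DYNC1H1, the heavy chain of cytoplasmic dynein, at RPKM 4.19 in stillborn, 6.72 in spontaneous abortion and 10.7 in alive, or 2.28-fold lower in stillborn than alive (2.12 to 2.44). The highest was the zinc finger gene ZNF839, at 1.41, 0.699 and 0.641.

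BEGAIN, a postsynaptic density gene and the nearest listed gene before DLK1, had 0, 1 and 0 reads. WDR25, a WD repeat gene, was at RPKM 0.720, 0.905 and 1.35 in stillborn, spontaneous abortion and alive. Downstream of DIO3, PPP2R5C, a regulatory subunit of protein phosphatase 2A, was at 20.6, 13.9 and 12.6, in the opposite order to DLK1. YY1, a transcription factor upstream of the cluster, was at 17.2, 19.5 and 17.6. In spontaneous abortion against alive, 0 of 16 flanking genes were apart, near the 2.3% (higher) and 1.5% (lower) of all genes. The lowest was the actin regulator EVL at 0.816 against 1.35. In gene order, the ratios apart were those of the neighbours DLK1 and RTL1, which the choice favours. DIO3 at the far end lay within the range of the flanking genes.

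**Figure D4:**
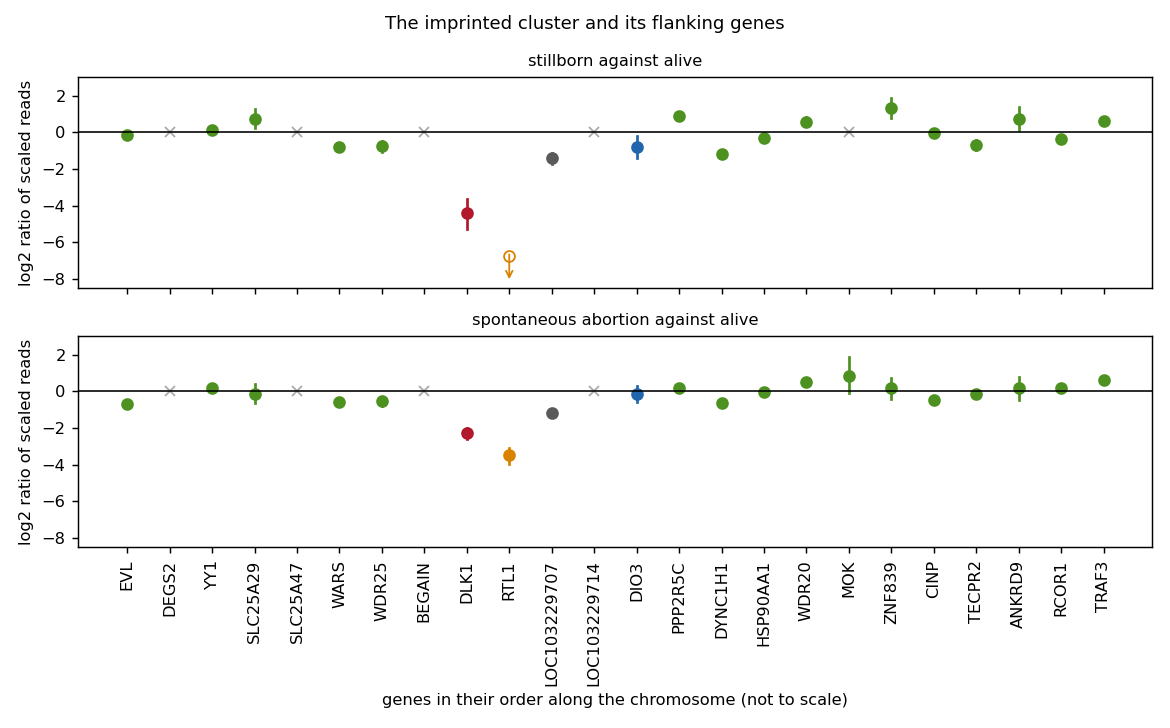
Log2 ratio of scaled reads (vertical axis) for the genes of the cluster and the flanking genes in their order in the RefSeq table (horizontal axis, not to scale), against the alive library; lines are exact 95% counting intervals, the open circle takes 0 reads as 3, and crosses at 0 mark genes with under 30 reads in the higher library. DLK1 and RTL1 stand below all flanking genes with enough reads, which lie between DYNC1H1 and ZNF839 in the upper panel.

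Genes with the most similar pattern were ranked by distance between log2(RPKM + 0.1) values centred on each gene's mean over the 3 libraries, among 11887 genes with a symbol and at least 30 reads in the highest library. With 3 libraries this is a description. RTL1 was the third nearest of them to DLK1, at a distance of 0.511, and both were picked for a low stillborn value. With genes that lack a symbol included, 6 of 14088 genes were nearer to DLK1 than RTL1 was. The nearest 2 to DLK1 were H2BC17, a histone H2B gene, at RPKM 0.351, 2.70 and 10.8 in stillborn, spontaneous abortion and alive, and NDST4, a heparan sulfate sulfotransferase, at 0.0441, 0.383 and 1.60. KHDC1 and HIGD1B followed.

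For RTL1 the nearest was KHDC1, at 0, 0.139 and 1.005, then DLK1, the hair keratin KRT35 at 0.147, 0.669 and 7.47, DNAAF1, a gene of ciliary dynein assembly, and NDST4. For DIO3 the 5 nearest were TROVE2, an RNA-binding protein of small cytoplasmic RNAs, USP32, FBXO38, LRR1 and SMG6, at distances from 0.00546 to 0.0191. TROVE2 was at RPKM 7.30, 12.0 and 13.7. DIO3 had far closer company than the other two, since its pattern lies in the body of the genes, and its distance to DLK1 was 2.43. With 1 in place of 0.1 as the added constant, 1 of the 5 remained for DLK1 and 0 for RTL1 and DIO3.

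Notch signalling, to which DLK1 is linked as a non-canonical ligand, had few other ligand and target transcripts in these fluids. Of 8 other ligand genes, JAG1 alone had 30 reads in any library, at RPKM 1.09 in stillborn, 0.908 in spontaneous abortion and 0.663 in alive. DLK2, the closest relative of DLK1, had 0, 3 and 6 reads, too few for a comparison. Of the receptors, NOTCH2 was the most abundant per length at 2.96, 2.74 and 3.53, and NOTCH1 was at 0.195, 0.229 and 0.428. None of the 3 receptors with enough reads was apart in stillborn against alive, with a median log2 ratio of -0.96. The same holds for the 4 with enough reads in spontaneous abortion against alive, at -0.42. With 1.5% to 4.69% of all genes apart by comparison and direction, these counts say little.

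HES1, a transcriptional repressor induced by Notch, was the only 1 of 10 target genes with 30 reads in any library. It was at RPKM 9.13, 13.5 and 16.1, which is 1.57-fold lower in stillborn than alive (1.34 to 1.85). Of 20 processing and nuclear genes with enough reads in stillborn against alive, 3 were apart as higher, beside 4.69% of all genes, and 0 as lower. They were the fringe glycosyltransferases RFNG and MFNG and the ubiquitin ligase gene DTX1. MFNG had 41, 1 and 0 reads, DTX1 47, 0 and 0, and RFNG 72, 99 and 21. In this comparison all 3 reached 30 reads through the stillborn library alone. They could only come out as higher, and the count supports nothing. In spontaneous abortion against alive 0 of 18 were apart, beside 2.3% of all genes as higher and 1.5% as lower.

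MFNG and DTX1 are also expressed in leukocytes, and leukocyte transcripts stood higher in the stillborn library. The 10 leukocyte markers summed to RPKM 47.7 in stillborn, 13.8 in spontaneous abortion and 20.6 in alive, with MPO and CD3E at 0 reads in all 3. Of 8 with enough reads, 3 were apart as higher in stillborn against alive (PTPRC, S100A8 and S100A9) and 1 as lower (GNLY), beside 4.69% and 3.23% of all genes. GNLY and CD14 were the 2 of 7 apart as lower in spontaneous abortion against alive, beside 1.5% of all genes. Their part in the Notch list was not tested.

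A list for adipocyte differentiation, which DLK1 is known to restrain, gave mixed values. Of 8 genes with enough reads in stillborn against alive, 2 were apart as higher and 0 as lower, beside 4.69% and 3.23% of all genes, with a median log2 ratio of 0.31. Scaled by total reads alone, 1 was apart as lower. LPL, the lipoprotein lipase, was at RPKM 37.0 in stillborn, 3.02 in spontaneous abortion and 1.26 in alive, or 32.8-fold higher in stillborn than alive (26.7 to 40.7). CD36, a fatty acid transporter, was at 0.721, 0.124 and 0.159. Both are also expressed in macrophages, and the macrophage marker CD68 was at 14.9, 5.46 and 4.37. Its part in these values was not tested.

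The transcription factors of the adipocyte programme differed in both directions. PPARG, its master regulator, was at RPKM 8.80, 5.71 and 6.78, and CEBPA at 1.51, 0.842 and 1.58. ZNF423, a preadipocyte factor, was 3.93-fold lower in stillborn than alive (2.47 to 6.52) and CEBPD 1.86-fold lower (1.59 to 2.19), while CEBPB was 1.98-fold higher (1.47 to 2.66). FABP4, a fatty acid binding protein of adipocytes, was at 0.146, 2.68 and 0.256, with 2, 62 and 4 reads. It was 10.8-fold higher in spontaneous abortion than alive (3.999 to 40.7), the 1 gene apart of 9 in that comparison, beside 2.3% of all genes as higher. There FABP4 reached the read limit through the abortion library alone. It could therefore only come out as higher, and the count supports nothing. ADIPOQ, an adipocyte hormone, had 29 reads in the spontaneous abortion and 0 in both others.

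Genes that handle thyroid hormone were set beside DIO3. Of 10 with enough reads in stillborn against alive and 11 in spontaneous abortion against alive, 0 were apart, with median log2 ratios of -0.29 and -0.12. With 4.69% and 3.23% of all genes apart in the first comparison and 2.3% and 1.5% in the second, counts of 0 in lists this short say little. After thinning to the smallest total, 1 was apart as higher in stillborn against alive. The activating deiodinase DIO1 was at RPKM 2.88, 2.06 and 1.65, with 29, 35 and 19 reads. In the stillborn library this lay above the interval of DIO3 (0.720 to 1.41). In the abortion and alive libraries it lay within that of DIO3 (1.41 to 2.08 and 1.58 to 2.47). The balance of DIO1 with DIO3 was given no interval of its own. DIO2, the other activating deiodinase, was at 0.925, 0.384 and 0.122, with 20, 14 and 3 reads, under the limit for a comparison. THRB, a thyroid hormone receptor, was at 41.8, 48.4 and 37.8, far above THRA at 0.763, 0.988 and 0.729.

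Of 4 thyroid hormone response genes with enough reads, 0 were apart in any comparison. With 1.5% to 4.69% of all genes apart by comparison and direction, this count says little. KLF9, a direct target of the hormone receptor, was at RPKM 2.30, 2.16 and 1.78, and ME1, malic enzyme, at 4.93, 2.91 and 1.48. ME1 was 3.72-fold higher in stillborn than alive (3.17 to 4.38), under the limit of 4-fold.

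DIO3 carries selenocysteine, so genes of selenoprotein synthesis and other selenoproteins were set beside it. All 8 synthesis genes had enough reads and 0 were apart in any of the 3 comparisons. With 1.5% to 4.69% of all genes apart by comparison and direction, 0 of 8 says little. SECISBP2, which reads the selenocysteine signal in the message, was at RPKM 3.49, 3.86 and 4.22. Of the other selenoproteins, 0 of 13 were apart in stillborn against alive, near the shares of all genes, and SELENOP (listed as SEPP1), the plasma selenium carrier, was at 103, 58.1 and 42.2. GPX2, an epithelial glutathione peroxidase, was the 1 of 14 apart in spontaneous abortion against alive, beside 1.5% of all genes as lower. It was at RPKM 3.15, 0.593 and 3.17, or 5.21-fold lower in the abortion (2.77 to 10.5). With 13 reads in the abortion and 47 in alive, GPX2 reached the read limit through the alive library alone. It could therefore only come out as lower, and the count supports nothing.

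RTL1 is 1 of several genes derived from retrotransposon gag sequences. The 7 others with enough reads all lay below 1 in stillborn against alive, with a median log2 ratio of -0.86, beside -0.02 for all genes. This sets 1 library against 1 library, and a shared direction of these genes was not tested. Of them 0 were apart, beside 3.23% of all genes as lower. PEG10, also imprinted and needed for the placenta, was at RPKM 34.4, 35.1 and 73.2, or 1.91-fold lower in stillborn (1.84 to 1.98) and 2.03-fold lower in spontaneous abortion (1.97 to 2.10) than in alive. LDOC1 was at 16.4, 22.2 and 33.2, and RTL8C, listed under its older symbol FAM127A, at 1.63, 3.62 and 5.24. In spontaneous abortion against alive 5 of the 7 lay below 1, with a median of -0.42, beside 0.01 for all genes. RTL1 itself was farther down than any of these in both comparisons, which its choice favours.

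**Figure D5:**
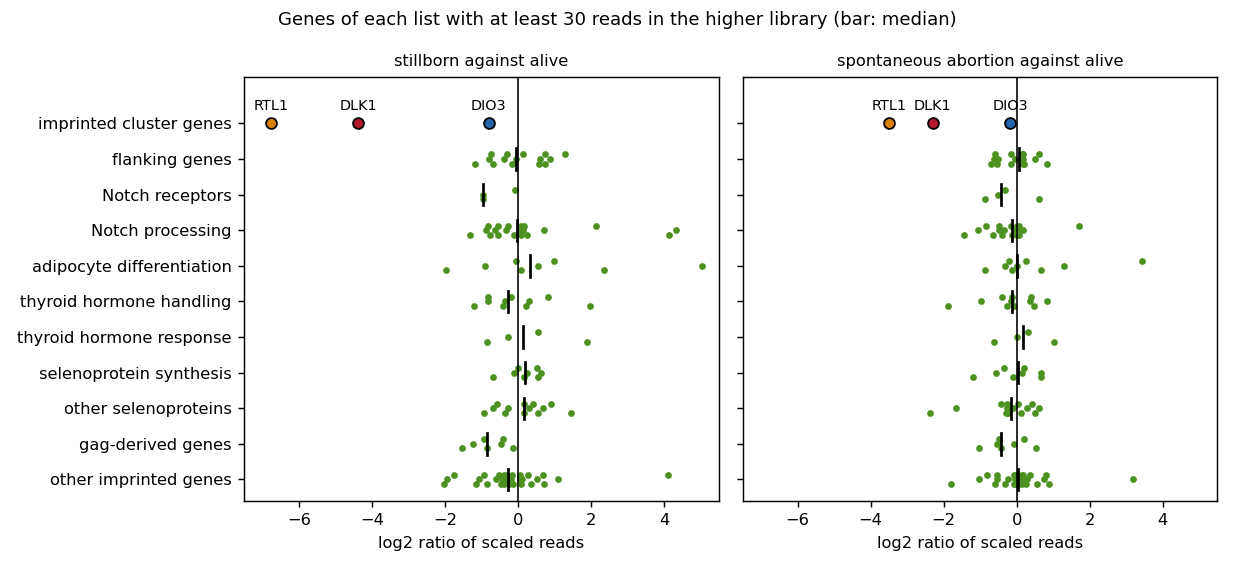
Log2 ratio of scaled reads (horizontal axis) for the flanking genes and 9 of the pathway lists, without the tissue marker lists, as genes with at least 30 reads in the higher library (points, shifted vertically only to separate them), with the list's median as a bar and the 3 members in the top row; the left panel is stillborn and the right panel spontaneous abortion, each against alive. RTL1 lies left of every listed gene shown, DLK1 does so in the left panel but not in the right, where GPX2 lies farther left, and DIO3 lies within the lists.

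Other imprinted genes had ratios on both sides of 1. Of 30 with enough reads in stillborn against alive, 1 was apart as lower and 1 as higher, near the 3.23% and 4.69% of all genes, with a median log2 ratio of -0.27. Scaled by total reads alone, 2 were apart as lower. The lower was OSBPL5, an oxysterol-binding protein, at RPKM 0.244, 0.904 and 1.104, and the higher was ATP10A, a phospholipid transporter with 68, 65 and 5 reads. With under 30 reads in the alive library, ATP10A could only come out as higher against it. NNAT, a paternally expressed proteolipid, was at 19.5, 47.8 and 73.3, in the order of DLK1, or 3.36-fold lower in stillborn than alive (3.12 to 3.62). PEG3, a paternally expressed zinc finger gene, was at 9.89, 23.1 and 24.6, and NAP1L5 at 0.715, 0.848 and 3.06. IGF2 went the other way, 2.13-fold higher in stillborn than alive, as did MEST at 1.65-fold (1.59 to 1.70) and H19 at 1.42-fold. Of the 30 genes, 19 lay below 1 in this comparison. In spontaneous abortion against alive 1 of 32 was apart as higher (ATP10A) and 0 as lower, beside 2.3% and 1.5% of all genes, with a median of 0.02. Between the losses 1 of 32 was apart as lower in stillborn, beside 1.65% of all genes, and 0 after thinning. It was TFPI2, with 2, 44 and 27 reads. Between the losses TFPI2 reached 30 reads through the abortion library alone, so it could only come out as lower in stillborn.

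Markers of the tissues that are known to express DLK1, RTL1 or DIO3 were mostly few in reads. Skeletal muscle markers summed to RPKM 16.0 in stillborn, 8.88 in spontaneous abortion and 26.7 in alive, nearly all of it TNNT1, while MYOD1, MYOG, MYF5, PAX7, MYH3 and CKM had 0 reads in all 3. Endothelial markers summed to 1.31, 1.89 and 1.32, with CDH5 and CLDN5 at 0 reads in all. Of 9 adrenal markers, CYP11A1 and SULT2A1 had 30 reads in any library and CYP17A1, NR5A1 and 3 others had 0 in all. No pituitary or neuroendocrine marker reached 30 reads.

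Fetal liver markers summed to RPKM 90.8, 77.5 and 86.5, with AHSG at 0 reads in all 3, but single genes differed in direction. TTR was at 24.7, 24.3 and 49.2, while APOA1 was at 1.04, 0.970 and 0.313. Of 9 with enough reads, 5 lay below 1 in stillborn against alive and 3 in spontaneous abortion against alive. AFP, the fetal serum protein, was at 1.38, 4.53 and 2.45, not in the order of DLK1. FGB, a fibrinogen chain, had 1, 42 and 31 reads and was the 1 of 9 apart in stillborn against alive, beside 3.23% of all genes as lower. In this comparison FGB reached the read limit through the alive library alone. It could therefore only come out as lower, and the count supports nothing. Trophoblast markers summed to 116, 145 and 153, with CGA and CYP19A1 at 0 reads in all, and 0 of 7 were apart in any comparison. With 1.5% to 4.69% of all genes apart by comparison and direction, 0 of 7 says little. Of 8 mesenchymal markers with enough reads, 3 lay below 1 in stillborn against alive, with a median log2 ratio of 0.14. THY1 was the 1 apart, as lower, at 3.51, 7.31 and 17.8, while COL1A2 was 2.51-fold higher and VIM 1.61-fold higher. Their part in the values of the cluster was not tested.

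Among kidney markers, 2 of 4 genes with enough reads were apart as lower in both losses against alive, beside 3.23% and 1.5% of all genes. Both reached 30 reads through the alive library alone, so they could only come out as lower, and the count supports nothing. They were AQP2, a water channel of the collecting duct with 6, 3 and 32 reads, and SLC12A3, a salt transporter of the distal tubule with 0, 6 and 30 reads. NPHS1, a podocyte gene, had 0, 1 and 26 reads. The 10 markers summed to RPKM 9.90, 10.9 and 18.2, most of it PODXL. Squamous markers lay the other way, at 969, 549 and 359 in sum, with 6 of 10 apart as higher in stillborn against alive, beside 4.69% of all genes. Whether these shares of other cells bear on DLK1 and RTL1 was not tested.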

How the data were processed

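Cell-free RNA of amniotic fluid supernatant was sequenced in 3 libraries, 1 per status. The deposited values are RPKM made by the authors, 1 per gene and library. Demultiplexing with bcl2fastq 2.17, and the tools STAR and HTSeq, appear in the submitters' processing notes. Build, annotation, strand setting and how RPKM was made: not given in the sources used here. Library totals and whole reads were solved from the ratios between libraries within a gene. For 99.7% of the 23276 genes above 0, whole reads gave the printed values within 0.6 units of their last digit, and these reads add up to 96.0% to 96.7% of the totals. Genes without such reads were left out of comparisons. The solution and the calls were also run on simulated reads with known totals, lengths and changed genes, and the outcome is not reported here.

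The TMM factors of the stillborn, abortion and alive libraries were 0.937, 1.02 and 1.05, from a Python version of the method. Ratios have exact Clopper-Pearson 95% intervals, given the summed reads of the pair, and levels have exact Poisson intervals. A 0 was taken as 3 reads. With 1 library per status no p-value was computed. Calculations used Python 3.11.15 with scipy 1.17.1. LOC names took a symbol from the RefSeq table through their gene ID for 825 of 17250 genes.

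The members and gene lists were chosen with earlier results of these data known. Of each list, genes were named for a high mean RPKM or for being apart, besides those described as few in reads, at 0, as markers or next in size, which were chosen after their values were seen. The 5 genes nearest to each member were named. Alternatives were other scalings, read limits, added constants and thinning to the smallest total.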

Additional observations from a re-analysis of the deposited data

How the results depend on the processing

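No paired analysis was possible because each status has 1 library, and no library could be left out. Under total reads, median-of-ratios and upper quartile scaling and after thinning, all 9 ratios of DLK1, RTL1 and DIO3 stayed within their intervals or, for RTL1 at 0 reads, within 0.5 on the log2 scale. Scaling by total reads moved all ratios of stillborn against alive by -0.16, and the upper quartile moved spontaneous abortion against alive by 0.22. Adding 1 to RPKM gave log2 ratios for stillborn against alive of -3.04 for DLK1 and -1.32 for RTL1, for spontaneous abortion against alive -1.91 and -1.14, and for the losses -1.13 and -0.18. Adding 0.1 gave RTL1 -4.00, -2.78 and -1.22, since a constant shrinks the ratios of low values. With 0 taken as 1 read RTL1 was at -8.34 against alive and -4.85 against the abortion.

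Genes apart as higher numbered 631 in stillborn against alive, 317 in spontaneous abortion against alive and 389 between the losses, and as lower 435, 207 and 228. With at least 10 reads they were 1150, 639 and 748 as higher and 718, 498 and 418 as lower, and with no limit 1233, 639 and 933, and 718, 596 and 418. With at least 100 reads they were 284, 116 and 147, and 191, 54 and 65. At 2-fold they were 1760, 1060 and 1040, and 1681, 786 and 1034. After thinning, 200 were higher in the abortion than in alive and 133 lower in stillborn than in the abortion. Of the 5 genes nearest to each member, an added constant of 1 left 1 for DLK1 and 0 each for RTL1 and DIO3, and a limit of 100 reads left 3 for DLK1 and 3 for RTL1.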
